A study of Mus musculus with 12 samples.

Results

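The libraries of 2 stable derivatives of ImPSC-1 were compared, a mouse line of immortalised stellate cells from the pancreas: cells made to overexpress Kitl (Kitl_OE, 3 libraries) and cells made to overexpress Egfp (Egfp_OE, 3 libraries), the green fluorescent protein that served as the control insert. These 6 libraries were taken by their column names from a table of 12. The other 6 came from cells with a control hairpin (shCtrl) and a hairpin against Kitl. They entered the choice of genes tested, the scaling and the shared estimate of the spread, and shCtrl also gave reference levels. All lines derive from ImPSC-1, were grown in DMEM with serum and pyruvate and carry a stable insert, and polyA-selected RNA was sequenced from each. The labels give the P numbers 17, 18 and 19 for Egfp_OE replicates 1, 2 and 3 and 18, 19 and 20 for Kitl_OE replicates 1, 2 and 3, without saying what they count. Whether a line is 1 clone or a pool, and whether the libraries of a line came from separate cultures, is not given. P-values here therefore reflect the spread among the sequenced samples alone, possibly of technical origin, and a property of the line and an effect of Kitl cannot be told apart with 1 line on each side.

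Kitl encodes stem cell factor, a growth factor made as a membrane-bound or a shed protein, which binds the receptor tyrosine kinase KIT on other cells such as mast cells and blood progenitors. Pancreatic stellate cells are fibroblast-like cells that store retinoids at rest. On activation they take on contractile filaments, deposit collagen and secrete growth factors and cytokines. Mesothelial cells, pericytes and smooth muscle cells are mesenchymal relatives whose marker genes overlap with those of stellate cells in part.

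Reads counted in genes came to between 25617898 and 33517686 in the Egfp_OE libraries and between 26998384 and 29953626 in the Kitl_OE libraries. Levels are in CPM, counts scaled to library size with TMM factors, and fold changes are log2 values of Kitl_OE over Egfp_OE from edgeR's quasi-likelihood model. A gene was called where its adjusted p was under 0.05. The pan-mesenchymal gene Vim stood at 1456, 1393 and 1509 CPM in the Egfp_OE libraries and 3527, 3179 and 3318 in the Kitl_OE libraries, and Pdgfrb at 196, 124 and 161 and 350.4, 300.2 and 291. Des, a filament gene used to mark stellate cells, was low in both lines (2.12, 5.41 and 2.85 CPM and 6.46, 8.72 and 6.59 CPM), and Gfap, another such marker, was under 0.5 CPM in each of the 6.

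Egfp_OE replicate 2 stood apart from the other libraries and calls, counts and list medians were computed with and without it. The chromosome medians subtracted from Kitl and the lists, and the comparison with shCtrl, used Egfp_OE replicates 1 and 3 alone. Spike-in RNA took 1.35% of its counts and 0.565% to 0.684% in the other 5. It differed by more than 2-fold from Egfp_OE replicates 1 and 3 in 2860 and 2948 genes, while those 2 differed from each other in 207. The deviation followed transcript length above 1000 bases: the median log2 difference of replicate 2 from the mean of the other 2 was 0.55 for genes with 1001 to 2000 exon bases and -0.58 for those over 8000. It was 0.37 for genes of up to 1000 bases. Genes more than 2-fold above both other Egfp_OE libraries (1171) had a median exon length of 1869 bases and those more than 2-fold below (1093) of 8230, against 4111 over all genes tested. H19, an imprinted noncoding RNA gene with 2460 exon bases, stood at 4.92, 74.2 and 5.67 CPM in Egfp_OE replicates 1, 2 and 3, and Usp9x, a deubiquitinase gene, at 377, 29.9 and 329.7. In Kitl_OE over Egfp_OE cells the median log2 fold change ran from -0.286 for genes of up to 1000 exon bases to 0.030 for those over 8000 with all libraries, and from 0.042 to -0.093 without replicate 2. The latter peaked at 0.106 for genes of 1001 to 2000 bases.

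**Figure D1:**
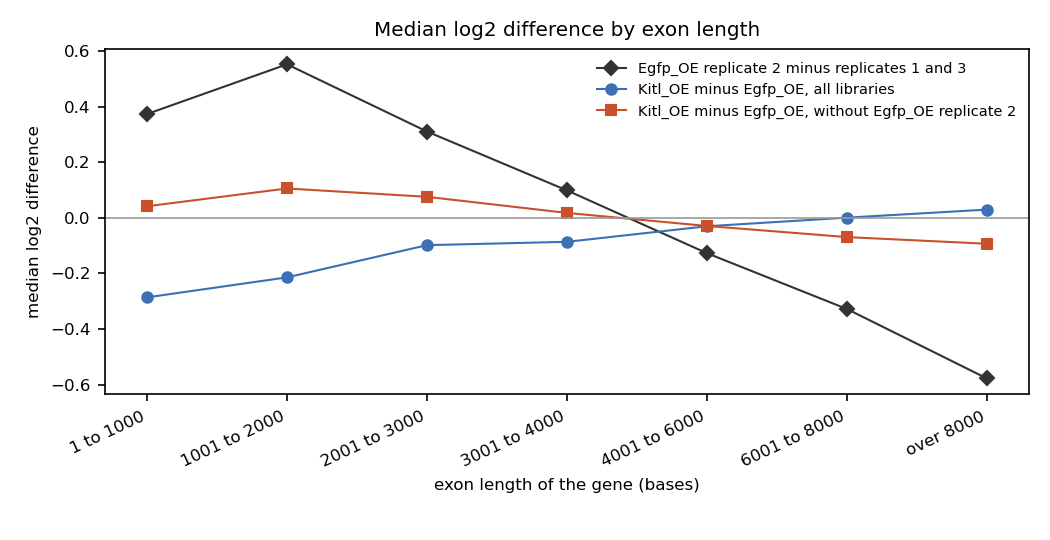
Median log2 differences (vertical axis) of genes grouped by exon length in bases (horizontal axis), for Egfp_OE replicate 2 minus the mean of replicates 1 and 3 and for Kitl_OE minus Egfp_OE with all libraries and without that replicate. The replicate 2 line stands at 0.374 up to 1000 bases, peaks at 0.553 at 1001 to 2000 and falls to -0.578 over 8000. The medians of the comparison rise with length with all libraries (-0.286 to 0.030). Without replicate 2 they go from 0.042 to a peak of 0.106 at 1001 to 2000 bases and then fall to -0.093.

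Kitl itself (ENSMUSG00000019966, chromosome 10, 100015630 to 100100416, plus strand, GRCm38) stood at 72.5, 31.8 and 72.3 CPM in the Egfp_OE libraries and at 125, 114 and 128 in the Kitl_OE libraries. The groups did not overlap, and the lowest value, in Egfp_OE replicate 2, was less than 0.5 of the other Egfp_OE values. The difference was a log2 fold change of 1.06 (SE 0.25, adjusted p = 0.00836) and of 0.77 without that library (adjusted p = 0.000847). Scaled by spike-in totals the log2 was 0.95 and not called (adjusted p = 0.242). In replicate 2 Kitl lay 1.16 log2 units below the other 2 Egfp_OE libraries, while 1632 genes of similar exon length had a median of -0.245. Genes of chromosome 10 as a group were higher in Kitl_OE cells too, with a median log2 of 0.434 without replicate 2, which leaves Kitl 0.339 above its chromosome. The chromosome was not uniform. Of 954 windows of 50 neighbouring genes averaging at least 5 CPM, the highest lay on it at 13207717 to 31609184, away from Kitl (median 0.859). The median of the genes around Kitl is not given here. Reads of the insert and of the resident gene cannot be told apart in these counts. The receptor gene Kit had no count in 5 of the 6 libraries and 0, 0 and 0.0341 CPM in the Kitl_OE libraries, and was too low to be tested.

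Differences between the lines were spread over the whole transcriptome. Of 15271 genes tested, 2352 were higher in Kitl_OE cells (15.4%) and 2884 lower (18.9%), 34.3% in all. Without Egfp_OE replicate 2 the counts were 3075 (20.1%) and 3039 (19.9%). Leaving out Kitl_OE replicate 1 or 2 brought the lowered genes to 1807 and 1895. Both fits called 2212 genes higher and 2419 lower (30.3% together) and none in opposite directions. When each of the 6 libraries was left out in turn, 1489 genes stayed higher in every fit (9.75%) and 1656 stayed lower (10.8%); these calls are termed kept below. A gene said to have risen or fallen had a kept call unless the text says otherwise. The median over all genes was -0.07 with all libraries and -0.001 without replicate 2. In 7716 genes (50.5%) the 3 libraries of one line lay outside the range of the other. The lowered side held the larger changes: 739 genes were lower and 271 higher by a log2 of at least 3 in both fits. In all, 110 genes averaged at least 5 CPM in Egfp_OE cells and stayed under 0.5 CPM in each Kitl_OE library, against 37 the other way round.

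The shCtrl line, which carries neither insert, served as an outside reference for these genes. Its replicates 1, 2 and 3 have the P numbers 14, 15 and 16, below those of both other lines. Its level was not fixed in every gene: from replicate 1 to 3 Pdgfra and Cldn1 fell and Hoxa9 rose (values below). The part of the P number was not tested. Of the kept genes that were higher by a log2 of at least 3 (256), shCtrl was within 2-fold of Egfp_OE replicates 1 and 3 alone in 194 and of Kitl_OE alone in 2. Of the kept genes lower by as much (703), it was within 2-fold of Egfp_OE alone in 324 and of Kitl_OE alone in 38. The scale was log2(CPM + 1), on which shCtrl was within 2-fold of both lines in 41 of the raised and 213 of the lowered genes, and of neither in 19 and 128. On both sides more genes had shCtrl at the Egfp_OE level alone than at the Kitl_OE level alone, which describes 3 lines and was not tested.

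**Figure D2:**
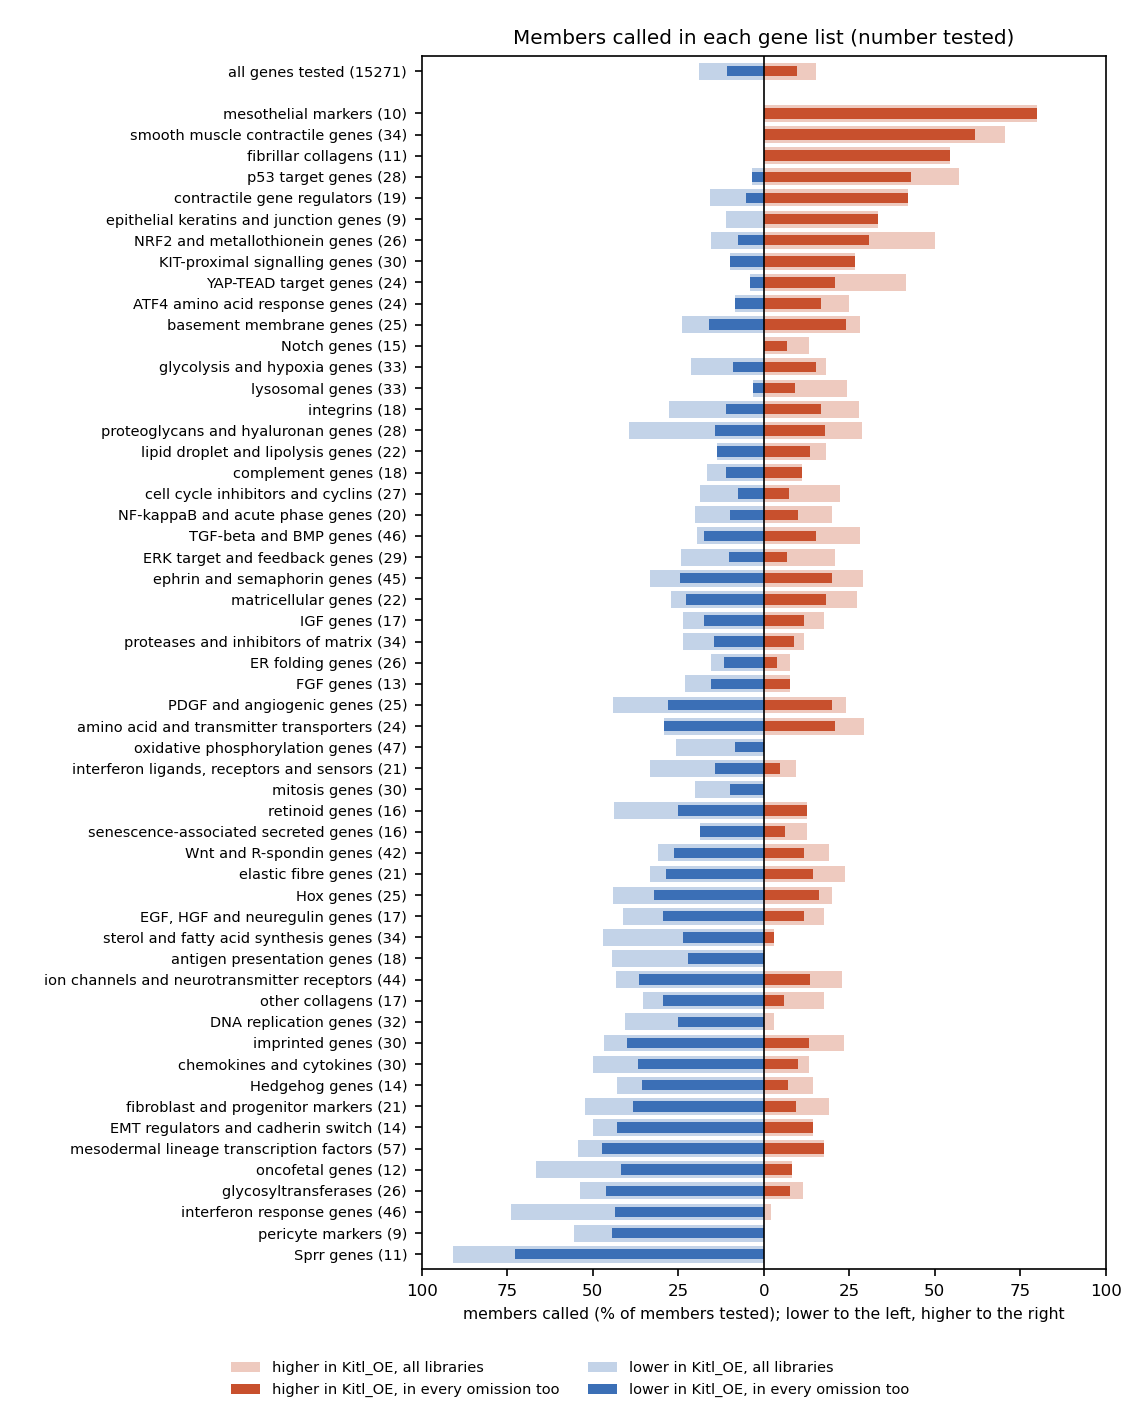
Share of tested members called in each of the gene lists with 9 or more members tested (horizontal axis, percent, lower in Kitl_OE to the left and higher to the right). Pale bars are calls with all 6 libraries and dark bars those that stayed in each fit without 1 library. Over all 15271 genes the dark bars reach 10.8% and 9.75%, and the lists run from mesothelial markers (80.0% higher) to Sprr genes (72.7% lower).

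Genes of mesothelium, the cell layer lining the abdominal organs, were raised. Of 16 markers 10 were expressed enough to be tested, 8 rose (80.0%, against 15.4% of all genes tested) and none fell, and all 8 calls were kept. Their median log2 was 2.84 (2.74 without replicate 2), against -0.07 over all genes. Ezr (ENSMUSG00000052397, chromosome 17, 6738041 to 6782784) encodes ezrin, which ties the membrane to actin, and rose from 94.4, 52.9 and 99.6 to 670.2, 761 and 452 CPM (log2 2.93, SE 0.33, adjusted p = 7.71e-05). Cpe, the processing enzyme carboxypeptidase E, rose from 289.8, 238 and 270.5 to 1066, 959.5 and 1021 CPM. Neither gene is restricted to mesothelium. Ezr and Cpe made up most of the summed markers, which came to 325 to 419 CPM in Egfp_OE and 1860 to 2355 in Kitl_OE libraries. In bulk RNA more cells of a type and more RNA per cell cannot be told apart.

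Some genes of cell junctions rose. Cldn1 (ENSMUSG00000022512, chromosome 16, 26356642 to 26371841), which encodes the tight junction protein claudin 1, stood at 3.95, 5.01 and 1.65 CPM in Egfp_OE and 113, 117 and 61.7 in Kitl_OE libraries (log2 4.79, SE 0.68, adjusted p = 0.000387). The values of the 2 lines were more than 10-fold apart in every pair of libraries, and shCtrl stood at 3.46, 1.22 and 1.06. Pkp2, a desmosomal plakophilin, rose from 13.6, 5.93 and 11.0 to 41.1, 30.6 and 40.7 CPM, and Jup, plakoglobin, from 48.9, 57.1 and 56.5 to 162, 171 and 116. Of 9 epithelial and junction genes tested out of 26, 3 rose and 1 fell (2 lower without Egfp_OE replicate 2, 0 lower without Kitl_OE replicate 1), the 1 being the cingulin gene Cgn. The tight junction gene Tjp1 was not called with all libraries (log2 0.02, adjusted p = 0.972) and was lower without replicate 2 (log2 -0.34, adjusted p = 0.0377). The mesenchymal neural cadherin Cdh2 also rose, from 163, 73.3 and 159 to 444, 418 and 525 CPM, while the mesenchymal cadherin Cdh11 fell from 124, 74.1 and 98.1 to 11.8, 15.2 and 19.2. Twist2, a basic helix-loop-helix regulator of mesenchyme, fell from 22.4, 56.2 and 26.1 to 0.739, 1.03 and 0.888 CPM (log2 -5.29, SE 0.37, adjusted p = 4.39e-06). In the list of transition regulators and cadherins 2 genes rose and 7 fell of 14 (4 higher without Egfp_OE replicate 1), 2 and 6 kept, and Fn1 was not called (log2 0.21, adjusted p = 0.736).

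Markers of fibroblast subsets went both ways. Of 21 tested, 4 rose and 11 fell (2 higher without Egfp_OE replicate 1 or 3), with 2 and 8 kept and a median log2 of -1.18. Cd34 (ENSMUSG00000016494, chromosome 1, 194938819 to 194961279), a sialomucin of progenitor and adventitial cells, stood at 86.8, 57.9 and 81.0 CPM in Egfp_OE and 0.895, 0.769 and 0.683 in Kitl_OE libraries (log2 -6.58, SE 0.32, adjusted p = 4.01e-07). Pdgfra, the alpha receptor for platelet-derived growth factor, fell from 211, 154 and 221 to 12.1, 17.6 and 16 CPM, whereas Pdgfrb gave a log2 of 0.97 that missed the threshold (adjusted p = 0.0631). The shCtrl libraries lay between the lines for Cd34 (49.7, 29.1 and 26.7 CPM) and Pdgfra (105, 52.3 and 32.2 CPM). Eng, endoglin, a coreceptor of the TGF-beta family used to sort pancreatic fibroblasts, rose from 78.6, 103 and 89.8 to 247, 239.9 and 234 CPM (log2 1.41, SE 0.20, adjusted p = 0.000396). Dcn, a small proteoglycan, stood at 83.3, 280.5 and 54.4 and 1419, 1496 and 705 CPM, and its call with all libraries (adjusted p = 0.0159) ended without Egfp_OE replicate 1 (adjusted p = 0.0522) or replicate 3 (adjusted p = 0.05). No pericyte marker rose and 5 of 9 fell (1 higher without Egfp_OE replicate 2), among them the G protein signalling regulators Rgs4 (30.2, 15.2 and 45.1 to 0.311, 0.183 and 0.307 CPM) and Rgs5 (3.46, 1.96 and 5.61 to 0.195, 0.330 and 0.410).

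Transcription factors of mesodermal lineages changed in many places. Of 57 tested, 10 rose and 31 fell, and 10 and 27 of these calls were kept. Hand2 (ENSMUSG00000038193, chromosome 8, 57320983 to 57324633), a factor of splanchnic mesoderm, rose from 4.87, 4.97 and 3.05 to 67.1, 67.1 and 52.1 CPM (log2 3.85, SE 0.46, adjusted p = 0.000134). Gata6 rose from 18.8, 18.9 and 18.9 to 118, 128 and 79.7 CPM and Foxf1, a forkhead factor of gut mesenchyme, from 14.5, 9.13 and 5.50 to 99.8, 99.8 and 95.1. Sox9, a factor of cartilage and duct cells, fell from 50.9, 74.4 and 75.3 to 2.49, 3.48 and 2.25 CPM (log2 -4.61, SE 0.29, adjusted p = 2.13e-06). Six2, a homeobox factor of kidney progenitors, fell from 65.6, 84.6 and 82.0 to 1.83, 3.55 and 5.84 CPM, Ebf3 from 48.1, 32.5 and 55.8 to 0.895, 1.72 and 3.07 and Tbx15 from 28.4, 26.6 and 24.1 to 1.13, 1.25 and 2.39. In each of these 7 genes the ranges of the 2 lines did not overlap, as in 50.5% of all genes tested. The 7 were picked from called genes, so this is no added support.

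Hox genes, which record position along the body axis, went both ways. Of 39 genes 25 were tested, 5 rose and 11 fell, with 4 and 8 kept. Within the HoxC cluster Hoxc4 fell from 7.93, 7.89 and 6.58 to 0.311, 0.476 and 0.444 CPM (log2 -4.17, adjusted p = 2.13e-06), and Hoxc5, Hoxc6, Hoxc9 and Hoxc13 were lower as well. Hoxa9, of the HoxA cluster, rose from 1.43, 1.40 and 0.671 to 9.14, 8.90 and 11.5 CPM (log2 3.07, adjusted p = 8e-05), with shCtrl between (4.15, 5.16 and 5.81 CPM). The position of these clusters on chromosomes 15 and 6 is set beside the chromosome medians below.

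Genes of fetal growth and imprinted genes fell more often than they rose, and several imprinted genes were near 0 in Kitl_OE cells. Hmga2, a chromatin architectural factor silenced in most adult tissues, fell from 409, 280.5 and 455 to 38.8, 46.5 and 90.6 CPM (log2 -2.70, SE 0.39, adjusted p = 0.000445). Igf2, the imprinted growth factor, rose from 0.372, 0.401 and 0.336 to 3.66, 8.57 and 5.05 CPM, while H19, which shares its imprinted domain, fell to 0.0778, 0.147 and 0.239. The noncoding RNAs Meg3 (4.58, 20.5 and 9.80 to 0.0778, 0.110 and 0.171 CPM) and Rian (12.6, 15.8 and 19 to 0.0778, 0.0733 and 0.273 CPM) of the Dlk1 domain on chromosome 12 fell, and the cell cycle inhibitor Cdkn1c fell from 27.7, 212 and 29.0 to 1.48, 1.1 and 0.820. In the oncofetal list 1 gene rose and 8 fell of 12 (5 lower without Kitl_OE replicate 1). Of 30 imprinted genes tested 7 rose and 14 fell, with 4 and 12 kept.

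**Figure D3:**
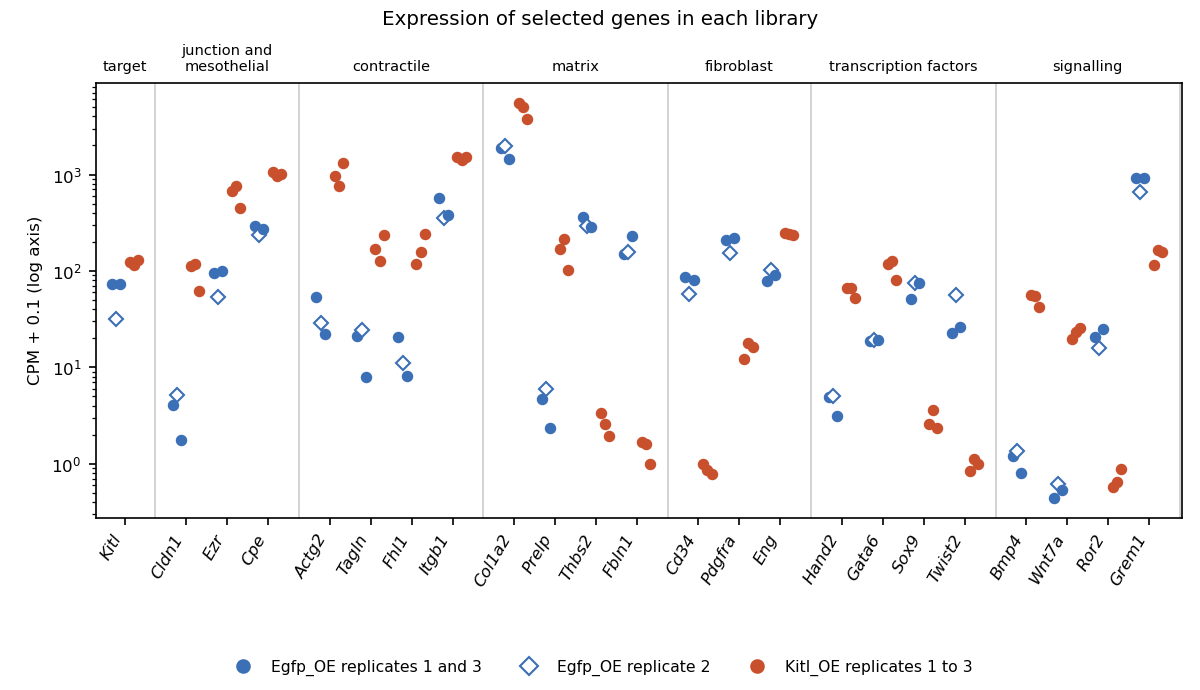
CPM plus 0.1 on a log axis for selected genes, with 1 point per library, blue for Egfp_OE (the open diamond is replicate 2) and red for Kitl_OE. In each gene shown the 3 points of one line lie outside the range of the other, for example Cldn1 with 1.65 to 5.01 against 61.7 to 117 CPM. The genes are a selection, and 50.5% of all genes tested showed no overlap.

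Contractile genes of smooth muscle and myofibroblasts were raised. Of 34 tested, 24 rose and none fell, 21 calls were kept, and the median log2 was 1.51 (1.61 without replicate 2, when 29 rose). Scaled by spike-in totals 18 rose. Actg2, the smooth muscle gamma actin (ENSMUSG00000059430, chromosome 6, 83512905 to 83536265), went from 53.7, 28.7 and 22 to 968, 766 and 1302 CPM (log2 4.86, SE 0.80, adjusted p = 0.000946). Tagln, transgelin, rose from 20.9, 24.2 and 7.75 to 169, 126 and 235 CPM, Myl9, a myosin light chain, from 64.4, 69.1 and 31.9 to 369, 319 and 566, and Myh11, the smooth muscle myosin heavy chain, from 0.229, 0.240 and 0.235 to 2.88, 2.42 and 5.53. Fhl1, a LIM protein, rose from 20.6, 10.9 and 7.99 to 116, 156 and 239.9 CPM. Kitl_OE replicate 3 was the highest library in these 5 genes, and no Egfp_OE library reached the lowest Kitl_OE value. The lines did not overlap in 50.5% of all genes tested either. Csrp1, another LIM protein, rose from 157, 207 and 107 to 634, 568 and 589 CPM.

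The regulators of this program gave 8 higher and 3 lower genes of 19 (1 lower without Kitl_OE replicate 2), 8 and 1 of them kept. Srf, the factor that binds CArG boxes, rose from 94.6, 95.6 and 99.3 to 143, 143 and 199.7 CPM (log2 0.75, SE 0.17, adjusted p = 0.00604), and its coactivator gene Mkl1 from 112, 56.3 and 109 to 289.7, 255 and 304. Myocd, the smooth muscle coactivator myocardin, was near 0 in both lines (0.143, 0.0401 and 0.269 and 0.0389, 0 and 0 CPM). Rhob, a small GTPase of actin signalling, rose from 84.7, 57.8 and 45.5 to 226, 216 and 211 CPM. Promoter windows of 300 bases (250 before to 50 after the start, RefSeq, GRCm38.p6) were searched on both strands for the CArG box. It occurred in 6 of the 29 contractile list members with an entry (20.7%) and in 425 of 27025 promoters (1.57%). Among kept contractile genes 4 of 16 held a match and among the other members 2 of 13. The 150 bases before the start are printed for 3 kept members whose match lies in them, 5′ to 3′ on the gene's strand, with the CArG box in capitals.
Fhl1 (chrX:56779533-56779682): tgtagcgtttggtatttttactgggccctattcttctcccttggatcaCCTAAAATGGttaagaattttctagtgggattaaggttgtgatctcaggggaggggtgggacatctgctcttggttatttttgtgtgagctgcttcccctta
Cnn2 (chr10:79988450-79988599): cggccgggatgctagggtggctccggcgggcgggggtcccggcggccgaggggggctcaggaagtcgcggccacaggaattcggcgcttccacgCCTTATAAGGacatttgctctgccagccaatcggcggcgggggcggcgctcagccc
Ldb3 (chr14:34588682-34588831): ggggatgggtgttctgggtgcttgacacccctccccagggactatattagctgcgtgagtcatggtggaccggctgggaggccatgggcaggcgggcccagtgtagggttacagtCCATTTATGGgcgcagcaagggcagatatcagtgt
Fhl1 and Cnn2 lie on the plus strand and Ldb3 on the minus strand. Cnn2, a calponin, rose from 318, 442 and 271 to 836, 784 and 1009 CPM, and Ldb3, a Z-disc protein gene, from 0.286, 0.0801 and 0.201 to 1.17, 0.953 and 2.94. A match describes the letters of the window and shows no binding.

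Targets of the YAP and TEAD regulators, which respond to cell spreading and tension, gave 10 higher and 1 lower genes of 24, with 5 and 1 kept (6 higher without Egfp_OE replicate 3 or Kitl_OE replicate 2, 5 higher without Kitl_OE replicate 3, 3 lower without Egfp_OE replicate 2, 2 lower without Kitl_OE replicate 3). Ctgf, a secreted matricellular factor, rose from 46.9, 37.1 and 23.4 to 281, 389.6 and 471 CPM (log2 3.41, SE 0.42, adjusted p = 0.000156). Crim1, a transmembrane growth factor binder, rose from 142, 70.0 and 94.5 to 409.6, 348 and 465 CPM and Wwc1, an upstream Hippo protein, from 43.1, 24.3 and 44.5 to 168, 157 and 182. Igfbp3, an IGF binding protein, fell from 30.3, 133 and 37.1 to 9.81, 3.59 and 3.38 CPM. Integrins, the receptors for matrix, gave 5 higher and 5 lower of 18 (3 lower without Egfp_OE replicate 1 or 3 or Kitl_OE replicate 1, 2 or 3). Itgb1 rose from 566, 356 and 382 to 1528, 1405 and 1520 CPM and its collagen-binding partner Itga1 from 5.67, 2.81 and 3.49 to 60.6, 37.6 and 43.3, while Itgb7 fell from 19.2, 30.2 and 29.7 to 0.778, 0.843 and 0.922 and Itgb8 from 4.06, 1.96 and 3.12 to 0.156, 0.147 and 0.171.

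Collagen fibre genes were higher and several other matrix genes were nearly absent in Kitl_OE cells. Of 11 fibrillar collagens 6 rose, all 6 kept, and none fell (1 lower without Egfp_OE replicate 2 or Kitl_OE replicate 1). Col1a2 rose from 1900, 1972 and 1455 to 5576, 5065 and 3787 CPM (log2 1.44, SE 0.35, adjusted p = 0.00841) and Col5a2 from 487, 199.7 and 254 to 1326, 1097 and 1320, while Col3a1 was not called (log2 0.33, adjusted p = 0.778). Col11a1 rose from 39.2, 24.6 and 26.4 to 154, 98.8 and 66.7 CPM. Of the basement membrane genes 7 rose and 6 fell of 25, 6 and 4 kept. Laminin genes parted: Lama5 rose from 30.8, 12 and 25.4 to 192, 196 and 94.1 CPM and Lama4 fell from 33.8, 17.9 and 36.8 to 1.13, 0.843 and 1.13. Fbln1 (ENSMUSG00000006369, chromosome 15, 85205949 to 85286535), the matrix glycoprotein fibulin 1, stood at 148, 157 and 232 CPM in Egfp_OE and 1.59, 1.5 and 0.888 in Kitl_OE libraries (log2 -7.08, SE 0.32, adjusted p = 3.06e-07). Npnt, nephronectin, an integrin ligand, fell from 29.6, 9.18 and 47.6 to 3.00, 1.58 and 3.55 CPM. The remaining collagens gave 3 higher and 6 lower of 17 (1 higher without Egfp_OE replicate 2 or 3 or Kitl_OE replicate 1 or 2).

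In the elastic fibre list 5 genes rose and 7 fell of 21 (3 higher without Egfp_OE replicate 3 or Kitl_OE replicate 1, 2 or 3). Loxl1, a lysyl oxidase that crosslinks elastin, fell from 206, 247 and 236 to 11.3, 18.2 and 20.4 CPM (log2 -3.78, SE 0.34, adjusted p = 2.17e-05), and Mfap2, a microfibril protein, from 6.75, 21 and 8.16 to 0.117, 0.22 and 0.137. The latent TGF-beta binding protein genes parted: Ltbp2 fell from 52.1, 11.7 and 38.9 to 1.25, 1.61 and 1.74 CPM and Ltbp4 rose from 2.72, 2.69 and 2.48 to 21.9, 24.3 and 15.3. Matricellular genes gave 6 higher and 6 lower of 22, 4 and 5 kept. Thbs2 (ENSMUSG00000023885, chromosome 17, 14665500 to 14694235), thrombospondin 2, stood at 366, 290.0 and 287 CPM in Egfp_OE and 3.27, 2.49 and 1.84 in Kitl_OE libraries (log2 -6.96, SE 0.64, adjusted p = 2.51e-05). Spp1, osteopontin, one of the most abundant secreted gene products of Egfp_OE cells on this list, fell from 1476, 2464 and 1450 to 29.6, 59.2 and 39.7 CPM, and Nov, CCN3, from 52.3, 75.0 and 49.1 to 2.02, 4.25 and 4.13.

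Proteoglycan and hyaluronan genes gave 8 higher and 11 lower of 28 (6 lower without Kitl_OE replicate 1, 2 or 3), with 5 and 4 kept. Prelp (ENSMUSG00000041577, chromosome 1, 133910304 to 133921414), a leucine-rich proteoglycan of connective tissue, rose from 4.64, 5.81 and 2.25 to 167, 214 and 102 CPM (log2 5.25, SE 1.00, adjusted p = 0.00226). Cemip, which promotes hyaluronan breakdown, rose from 5.90, 5.49 and 4.97 to 72.6, 60.9 and 118 CPM. Proteases and their inhibitors gave 4 higher and 8 lower of 34, 3 and 5 kept. These were 35.3% called and 23.5% kept, near the 34.3% and 20.6% over all genes tested. The serpins Serpinf1 (222, 509 and 243 to 2.53, 3.44 and 2.83 CPM) and Serpine2 (136, 226 and 119 to 3.07, 6.49 and 6.04 CPM) fell. Among the secreted metalloproteinases Adamts9 rose from 16.8, 5.13 and 9.97 to 112, 108 and 105 CPM and Adamts14, a procollagen peptidase, fell from 14.1, 18.6 and 18.8 to 0.7, 1.06 and 1.37.

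Signalling genes were compared by pathway. Of the genes of KIT signalling, 8 genes rose and 3 fell of 30, all kept, Kitl included (6 lower without Egfp_OE replicate 2). The share called was 36.7%, near the 34.3% of all genes tested, and the share kept was 36.7% against 20.6%. The phosphatase gene Ptpn6 rose from 1.32, 1.20 and 1.51 to 10.1, 8.68 and 7.03 CPM, the Src-family kinase gene Lyn from 8.70, 6.25 and 7.99 to 24.6, 24.9 and 28.0 and the docking protein gene Gab1 from 26.7, 22.1 and 23.1 to 71.3, 65.4 and 61.5. Socs1, an inhibitor of cytokine signalling, fell from 9.76, 25.2 and 17.9 to 7.08, 5.79 and 4.71 CPM. ERK target and feedback genes gave 6 higher and 7 lower of 29 (3 higher without Kitl_OE replicate 2, 3 lower without Kitl_OE replicate 1, 4 lower without Kitl_OE replicate 2), 2 and 3 kept. Of this list 44.8% were called and 17.2% kept, against 34.3% and 20.6% of all genes tested. Fosl1 fell from 93.3, 70.5 and 137 to 15.2, 25.2 and 39.9 CPM and Dusp5, an ERK phosphatase, from 38.2, 38.1 and 51.4 to 13.4, 14.7 and 18.7, while Epha4 rose from 2.95, 1.40 and 2.28 to 29.7, 25.6 and 26.5.

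In the BMP branch of the TGF-beta family ligand and antagonist genes went both ways. Bmp4 (ENSMUSG00000021835, chromosome 14, 46383520 to 46390669) rose from 1.09, 1.24 and 0.705 to 55.5, 54.5 and 42.5 CPM (log2 5.65, SE 0.79, adjusted p = 0.000350), and shCtrl stood at 5.56, 2.01 and 1.31. Grem1, gremlin, a secreted BMP antagonist, fell from 909.7, 663 and 926 to 116, 166 and 158 CPM (log2 -2.50, SE 0.34, adjusted p = 0.000294), and Chrdl1, another antagonist, from 6.47, 9.42 and 5.91 to 0.350, 0.513 and 0.376. The ligand genes Bmp2 (0.916, 0.801 and 0.503 to 0.0389, 0 and 0 CPM) and Bmp6 (4.32, 7.25 and 4.03 to 0.467, 0.733 and 1.26 CPM) fell, and Chrd, the antagonist chordin, rose from 2.69, 4.61 and 3.46 to 20.4, 20.1 and 12.4 CPM. Tgfbr3, the coreceptor betaglycan, fell from 179, 116 and 159 to 25.6, 32.8 and 27.1 CPM, Inhbb, an activin subunit, from 45.0, 34.3 and 41.1 to 1.09, 3.70 and 2.73, and Id4 from 5.47, 10.5 and 8.49 to 0.428, 0.623 and 1.37. The list gave 13 higher and 9 lower of 46 (8 higher without Egfp_OE replicate 3, 7 higher without Kitl_OE replicate 3), with 7 and 8 kept.

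Genes of the Wnt pathway went both ways. Wnt7a (ENSMUSG00000030093, chromosome 6, 91363981 to 91411363) rose from 0.344, 0.521 and 0.436 to 19.4, 23.3 and 25.5 CPM (log2 5.71, SE 0.96, adjusted p = 0.00108). The receptor genes Ror2 (20.6, 15.6 and 25.1 to 0.467, 0.550 and 0.785 CPM) and Fzd6 (19, 11.6 and 16.4 to 0.467, 0.769 and 0.922 CPM) fell, while Fzd4 (12.5, 10.2 and 11.9 to 48.3, 39.2 and 37.4 CPM), Fzd5 (11.3, 6.85 and 9.43 to 22.6, 22.6 and 23.6 CPM) and Fzd7 (80.1, 38.2 and 53 to 155, 141 and 141 CPM), receptors of the same family, rose. Lef1, a nuclear effector, fell (6.35, 6.45 and 6.71 to 0.0778, 0.183 and 0.205 CPM). Rspo2, an R-spondin ligand that amplifies Wnt signals, stood at 3.81, 8.86 and 3.62 and 0, 0.0733 and 0.137 CPM. In all 8 Wnt genes rose and 13 fell of 42 (5 higher without Kitl_OE replicate 3), 5 and 11 kept. Hedgehog genes gave 2 higher and 6 lower of 14 (1 higher without Kitl_OE replicate 1, 2 or 3). Hhip, a decoy receptor and target of the pathway, fell from 10.8, 3.33 and 7.08 to 0.117, 0.147 and 0.0341 CPM, Gas1, a coreceptor, from 147, 353 and 147 to 5.14, 9.93 and 8.47 and Gli2, a transcription factor, from 9.93, 3.81 and 6.44 to 0.661, 0.769 and 2.05. Of the Notch genes 2 rose and none fell of 15 (1 higher without Egfp_OE replicate 1 or 3 or Kitl_OE replicate 1 or 3, 2 lower without Egfp_OE replicate 2, 1 lower without Kitl_OE replicate 3), with the ligand gene Jag1 going from 5.55, 4.13 and 4.80 to 22.2, 18.4 and 37.0 CPM. The Notch share called was 13.3%, below the 34.3% of all genes tested.

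Growth factor genes acting on epithelium and vessels went both ways. Hgf, a stromal factor for epithelial cells, fell from 68.9, 10.9 and 32.5 to 0.856, 2.82 and 2.29 CPM and Btc, an EGF receptor ligand, from 4.67, 4.17 and 3.39 to 0.467, 0.440 and 0.239, while the ligand gene Tgfa rose from 1.34, 0.601 and 1.61 to 10.2, 9.12 and 11.6. Errfi1, an EGF receptor inhibitor, fell from 160.2, 169 and 119.9 to 28.4, 30.1 and 33.7 CPM, and the list gave 3 higher and 7 lower of 17. Fgfr1 fell from 432, 398 and 487 to 162, 190.5 and 152 CPM (log2 -1.39, SE 0.20, adjusted p = 0.000413). Kdr, a VEGF receptor, rose from 4.21, 3.53 and 3.09 to 22.8, 21.3 and 25.6 CPM, and Flt4, another, fell from 4.49, 2.81 and 3.69 to 0.234, 0.0366 and 0.205. The PDGF and angiogenic list gave 6 higher and 11 lower of 25. In the IGF list 3 rose and 4 fell of 17 (5 higher without Egfp_OE replicate 2), 2 and 3 kept. Igfbp2, a binding protein gene near 0 in Egfp_OE cells, rose (0, 0.0801 and 0.0336 to 4.09, 6.92 and 10.2 CPM), and Igfbp6 fell from 66.6, 325 and 82.2 to 19.7, 23.2 and 12.4. Guidance genes gave 13 higher and 15 lower of 45, 9 and 11 kept. Sema3c rose from 18.6, 23.2 and 11.2 to 283, 177 and 142 CPM, while Ntn1, netrin 1, fell from 76.0, 58.0 and 82.8 to 3.42, 3.74 and 4.58 and its receptor gene Unc5c from 24.8, 17.4 and 13.8 to 0.506, 0.330 and 0.990.

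Interferon-induced genes were lower in Kitl_OE cells, but their level also varied among the Egfp_OE libraries. Of 46 tested, 34 fell and 1 (Ifi27) rose, with 20 falls kept (0 higher without Egfp_OE replicate 2 or 3 or Kitl_OE replicate 2, 22 lower without Egfp_OE replicate 2 or Kitl_OE replicate 3, 20 lower without Kitl_OE replicate 1). The median log2 was -3.38 and -2.22 without replicate 2. Summed over the list, Egfp_OE libraries ran from 1137 to 11530 CPM and Kitl_OE libraries from 941 to 1543, so that the ranges of the sums overlapped. Isg15, a ubiquitin-like modifier, stood at 169, 1116 and 38.5 CPM in Egfp_OE replicates 1, 2 and 3 and at 11.6, 24.3 and 11.2 in Kitl_OE (log2 -4.81, adjusted p = 0.00790, and -2.71 without replicate 2, adjusted p = 0.0300). Ifit1 stood at 201, 604 and 51.2 and 25.6, 39.8 and 18.9 CPM, and Mx1, a GTPase against viruses, at 6.84, 17.9 and 1.85 and 0.272, 0.330 and 0.205. In each of these genes replicate 2 was the highest and replicate 3 the lowest of the Egfp_OE libraries, and the lowest still lay above the highest Kitl_OE value. The lines did not overlap in 50.5% of all genes tested. The master regulator Irf7 (79.3, 754 and 19.6 and 7.39, 17.2 and 6.01 CPM) lost its call without replicate 2 (log2 -2.26, adjusted p = 0.117), without Kitl_OE replicate 1 (adjusted p = 0.0718) and without Kitl_OE replicate 3 (adjusted p = 0.0698).

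Promoters of the interferon list were searched on both strands for the core of the interferon-stimulated response element, GAAANNGAAA, which on the other strand reads TTTCNNTTTC. It occurred in 20 of 34 members with an entry (58.8%), in 943 of 27025 promoters (3.49%) and in 1 of 29 contractile genes (3.45%). Among the kept members 10 of 13 held a match and among the others 10 of 21. The 150 bases before the start are printed for 4 kept members, 5′ to 3′ on the gene's strand (RefSeq, GRCm38.p6), with the core in capitals; where cores overlap the run of capitals is longer.
Isg15 (chr4:156200819-156200968): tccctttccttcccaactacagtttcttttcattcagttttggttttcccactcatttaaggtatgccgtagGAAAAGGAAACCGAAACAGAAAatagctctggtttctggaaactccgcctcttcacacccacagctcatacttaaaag
Ifit1 (chr19:34640739-34640888): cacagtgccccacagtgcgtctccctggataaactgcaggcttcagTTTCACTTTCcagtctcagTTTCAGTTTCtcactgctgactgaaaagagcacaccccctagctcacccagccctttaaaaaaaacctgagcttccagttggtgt
Oas1a (chr5:120907526-120907675): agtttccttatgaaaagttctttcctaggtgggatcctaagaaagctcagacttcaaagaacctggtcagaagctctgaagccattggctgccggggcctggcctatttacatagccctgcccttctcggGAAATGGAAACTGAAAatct
Rsad2 (chr12:26456453-26456602): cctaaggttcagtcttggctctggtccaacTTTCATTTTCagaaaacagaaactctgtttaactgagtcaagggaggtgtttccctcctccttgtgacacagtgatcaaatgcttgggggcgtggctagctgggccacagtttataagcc
Ifit1 lies on the plus strand and the other 3 on the minus strand. Isg15 holds 3 overlapping matches, Ifit1 and Oas1a 2 each and Rsad2 1. Oas1a, a sensor of double-stranded RNA, stood at 22.2, 111 and 7.42 CPM in Egfp_OE and 0.739, 1.54 and 1.43 in Kitl_OE libraries, and Rsad2, viperin, at 51.1, 147 and 6.81 and 1.91, 2.90 and 1.54.

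**Figure D4:**
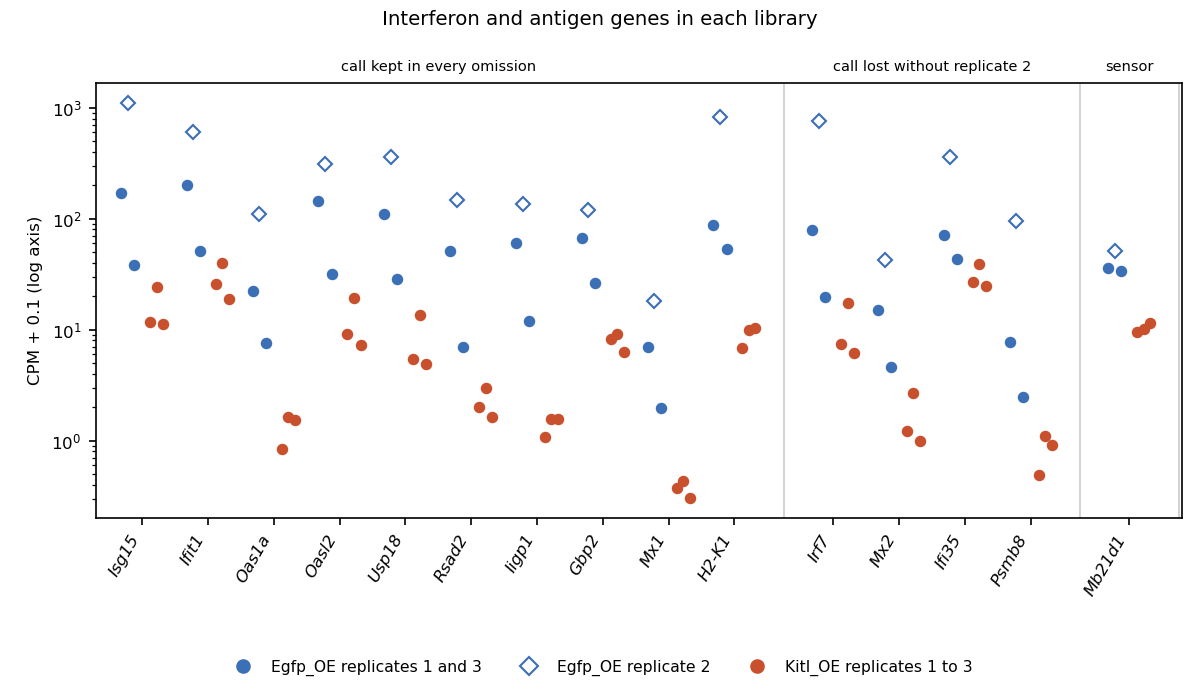
CPM plus 0.1 on a log axis for interferon and antigen genes, with 1 point per library, blue for Egfp_OE (the open diamond is replicate 2) and red for Kitl_OE. Replicate 2 is the highest library in every gene shown, and replicate 3 comes near the highest Kitl_OE library in genes of the second group, as for Irf7 with 19.6 against 17.2 CPM.

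Antigen presentation genes gave 8 lower and none higher of 18 (1 higher without Egfp_OE replicate 2, 4 lower without Egfp_OE replicate 2, 13 lower without Egfp_OE replicate 3, 5 lower without Kitl_OE replicate 1 or 2), 4 kept. Nlrc5, the activator of class I genes, fell from 26.4, 15.9 and 13.1 to 4.44, 6.85 and 4.06 CPM. Sensors and receptors gave 2 higher and 7 lower of 21 (4 higher without Egfp_OE replicate 1, 1 higher without Egfp_OE replicate 3 or Kitl_OE replicate 1, 2 or 3, 3 lower without Kitl_OE replicate 1, 4 lower without Kitl_OE replicate 2 or 3). Mb21d1, the cytosolic DNA sensor cGAS, fell from 36.1, 50.9 and 33.6 to 9.42, 10.0 and 11.4 CPM (log2 -1.97, SE 0.23, adjusted p = 0.000107), with Egfp_OE libraries close to one another, and Tlr2 from 17, 21.4 and 19.5 to 6.46, 6.85 and 5.67. Chemokines and cytokines gave 4 higher and 15 lower of 30, 3 and 11 kept. The monocyte attractants Ccl2 (162, 394 and 77.5 to 12.1, 17.9 and 18.4 CPM) and Ccl7 (107, 275 and 70.5 to 9.42, 11.7 and 9.36 CPM) fell. Il1rl1, the receptor for interleukin 33, fell from 247, 149 and 126 to 2.33, 2.02 and 2.36 CPM (log2 -6.28, SE 0.38, adjusted p = 1.89e-06), as did its ligand gene Il33, from 4.67, 5.61 and 1.65 to 0.156, 0.366 and 0.0341. Lif, a cytokine of the interleukin 6 family, rose from 4.21, 3.93 and 3.05 to 22.9, 25.4 and 18.8 CPM. Il6 was low and not called (1.69, 3.37 and 0.805 and 0.895, 0.989 and 2.42 CPM, adjusted p = 0.574), nor was Cxcl12 (576, 955 and 573 and 1234, 1160 and 1096 CPM, adjusted p = 0.154). NF-kappaB genes gave 4 higher and 4 lower of 20 (2 higher without Kitl_OE replicate 2, 2 lower without Egfp_OE replicate 3 or Kitl_OE replicate 1). Complement genes gave 2 and 3 of 18 (5 higher without Egfp_OE replicate 2).

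Retinoid genes, tied to the storage function of resting stellate cells, gave 2 higher and 7 lower of 16 (4 lower without Kitl_OE replicate 1), 2 and 4 kept. Aldh1a1, which makes retinoic acid from retinal, rose from 3.29, 6.37 and 1.78 to 327, 278 and 289 CPM (log2 6.29, SE 0.89, adjusted p = 0.000375, and log2 6.88 without Egfp_OE replicate 2). The receptor gene Rarb, which retinoic acid induces in many cells, fell from 3.09, 5.77 and 2.15 to 0.195, 0.330 and 0.341 CPM. The intracellular carrier gene Crabp1 fell from 72.7, 629 and 77.5 to 1.32, 1.61 and 2.01 CPM. Of the lipid droplet genes 4 rose and 3 fell of 22, 3 and 3 kept. These were 31.8% called and 27.3% kept, against 34.3% and 20.6% of all genes tested. Dgat2, the last enzyme of triglyceride synthesis, went from 13.5, 17.4 and 16.8 to 3.00, 3.92 and 3.82 CPM.

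Of the sterol and fatty acid synthesis genes, 16 fell and 1 (Fads2) rose of 34, 8 falls and 1 rise kept (2 higher without Egfp_OE replicate 2, 10 lower without Egfp_OE replicate 1 or Kitl_OE replicate 2 or 3, 8 lower without Kitl_OE replicate 1), with a median log2 of -0.53. Scaled by spike-in totals 3 were lower. Elovl6, a fatty acid elongase gene, fell from 132, 71.9 and 125 to 30.8, 28.2 and 34.3 CPM (log2 -1.82, SE 0.24, adjusted p = 0.000222, and 0.0184 scaled by spike-ins). Genes of oxidative phosphorylation had a median exon length of 1928 bases and summed to 14810 CPM in Egfp_OE replicate 2 and 7641 to 7892 in Kitl_OE libraries. Of these genes 12 of 47 fell with all libraries (5 higher without Egfp_OE replicate 2, 21 lower without Egfp_OE replicate 1, 4 lower without Kitl_OE replicate 1, 6 lower without Kitl_OE replicate 2, 7 lower without Kitl_OE replicate 3), and the median log2 moved from -0.50 to -0.05 without that library. Glycolysis and hypoxia genes gave 6 and 7 of 33 (3 lower without Kitl_OE replicate 1 or 2). Of these 39.4% were called and 24.2% kept, and of the oxidative phosphorylation genes 25.5% and 8.51%. Over all genes tested the shares were 34.3% and 20.6%.

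Stress programs were tested next. Targets of ATF4, the factor of the amino acid response, gave 6 higher and 2 lower of 24 (12 higher without Egfp_OE replicate 2), and the median log2 went from 0.19 to 0.75 without replicate 2. Chac1, a glutathione-degrading enzyme, rose from 23.1, 38.0 and 18.4 to 100.4, 116 and 89.8 CPM (log2 1.95, SE 0.26, adjusted p = 0.000254), and Aldh1l2 from 93.2, 22.6 and 60.7 to 268, 210.3 and 209. NRF2 targets and related detoxification genes gave 13 higher and 4 lower of 26 (8 higher without Kitl_OE replicate 2, 2 lower without Kitl_OE replicate 1 or 2). Nqo1, a quinone reductase, rose from 22.9, 12.8 and 20.9 to 93.0, 79.5 and 69.7 CPM and Cbr3, a carbonyl reductase, from 8.85, 11.9 and 5.67 to 50.5, 50.1 and 49.1, while Gsta4 fell from 16.9, 30.2 and 17.1 to 1.67, 1.28 and 1.13. Protein folding genes of the ER gave 2 and 4 of 26 (4 higher without Egfp_OE replicate 2, 1 higher without Egfp_OE replicate 3 or Kitl_OE replicate 1, 2 or 3), and lysosomal genes 8 and 1 of 33 (4 higher without Egfp_OE replicate 3, 3 higher without Kitl_OE replicate 1 or 2), higher before lower in each pair. In these lists 23.1% and 27.3% of members were called, below the 34.3% of all genes tested.

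More p53 targets rose than fell, against 15.4% of all genes higher and 18.9% lower. Of 28 p53 targets 16 rose and 1 (Plk2) fell, 12 and 1 kept, with a median log2 of 0.95 (0.92 without replicate 2). Scaled by spike-in totals 7 rose. Ccng1, cyclin G1, rose from 262, 165 and 212 to 624, 589.6 and 588 CPM (log2 1.5, SE 0.29, adjusted p = 0.00258), Mdm2, the ubiquitin ligase for p53, from 199, 121 and 177 to 361, 371 and 340.4 and Gdf15, a stress-induced secreted factor, from 15.1, 36.8 and 11.2 to 138, 165 and 124. Cdkn1a stood at 176, 283 and 161 and 764, 796 and 593 CPM, and its call with all libraries (adjusted p = 0.0176) ended without Egfp_OE replicate 1 (adjusted p = 0.0525) or replicate 3 (adjusted p = 0.0568).

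Replication genes gave 13 lower and 1 (Mcm2) higher of 32 (0 higher without Kitl_OE replicate 1, 2 or 3), 8 falls kept, and none was called when libraries were scaled by spike-ins. Cdc6, a licensing factor, fell from 98.3, 96.5 and 115 to 35.6, 35.6 and 45.0 CPM (log2 -1.41, SE 0.26, adjusted p = 0.00180), and Tk1, thymidine kinase, from 142, 209.9 and 172 to 65.3, 70.7 and 79.0. Mitosis genes gave 6 lower of 30 and none higher (11 lower without Egfp_OE replicate 2, 3 lower without Kitl_OE replicate 1 or 2), 3 kept, or 20% and 10%, near the 18.9% and 10.8% over all genes tested. The kept members were Birc5, survivin, 109, 222 and 126 to 41.6, 40.0 and 56.2 CPM, Ttk, a checkpoint kinase, 44.9, 32.8 and 45.0 to 13.3, 10.9 and 17.5, and Ccnb2, 63.1, 67.7 and 66.2 to 22.5, 21.2 and 27.1. Mki67, the proliferation marker, was not called with all libraries (452, 124 and 408 and 265, 180.0 and 317 CPM, log2 -0.37, adjusted p = 0.498) and was lower without replicate 2 (log2 -0.75, adjusted p = 0.0386). Of the cyclins and cell cycle inhibitors 6 rose and 5 fell of 27 (3 higher without Egfp_OE replicate 3 or Kitl_OE replicate 1 or 2, 2 lower without Kitl_OE replicate 1 or 2). Of this list 40.7% were called and 14.8% kept, against 34.3% and 20.6% of all genes tested. Ccnd2, a cyclin of the G1 phase, rose from 115, 146 and 139 to 641, 597 and 718 CPM (log2 2.29, SE 0.21, adjusted p = 2.35e-05).

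Membrane transport genes included several that were near 0 in one line. Of 44 ion channel and transmitter receptor genes tested 10 rose and 19 fell, 6 and 16 kept. Kcnd2, a voltage-gated potassium channel, rose from 0.2, 0.321 and 0.0671 to 25.7, 22.6 and 20.8 CPM (log2 6.88, SE 0.61, adjusted p = 1.93e-05). Kcnn4, a calcium-activated potassium channel, fell from 10.5, 8.97 and 17.6 to 0.156, 0.476 and 0.205 CPM, Scn7a, a sodium channel, from 6.24, 6.05 and 4.43 to 0.0389, 0.0366 and 0.0341 and Htr1b, a serotonin receptor, from 7.36, 5.13 and 6.58 to 0.0389, 0.0733 and 0.137. Transporters of amino acids and transmitters gave 7 higher and 7 lower of 24, 5 and 7 kept. The glutamine carrier gene Slc38a1 fell from 112, 58.0 and 126 to 11.4, 11.5 and 10.6 CPM (log2 -3.15, SE 0.28, adjusted p = 1.93e-05) and the cationic amino acid carrier gene Slc7a2 from 42.3, 17.3 and 46.2 to 0.739, 1.58 and 1.91.

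Glycosyltransferases, which build surface sugar chains, gave 3 higher and 14 lower of 26, 2 and 12 kept, with a median log2 of -1.09. Mgat5, which branches N-glycans, fell from 28.9, 11.5 and 29.5 to 1.44, 1.5 and 1.91 CPM and St6gal1, a sialyltransferase, from 12.8, 10.4 and 15.3 to 0.234, 0.147 and 0.239, while St3gal5, which makes the ganglioside GM3, rose from 82.3, 74.1 and 81.6 to 199, 212 and 164. Sprr genes, a cluster on chromosome 3 that encodes cornified envelope proteins and is induced by injury in other tissues, gave 10 lower and none higher of 11, 8 kept. Sprr1a stood at 159, 556 and 265 CPM in Egfp_OE and 5.10, 9.42 and 8.33 in Kitl_OE libraries (log2 -5.42, SE 0.54, adjusted p = 4.23e-05, and log2 -4.79 without Egfp_OE replicate 2), and at 410.0, 249 and 201 in shCtrl. The Sprr2 copies are near-identical, so the split of reads between them is uncertain.

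Beyond these lists, the 15 highest and 15 lowest genes by the naming rule included genes of unrelated functions. Asb2, a ubiquitin ligase subunit, stood at 0.172, 0.281 and 0.168 CPM in Egfp_OE and 47.9, 43.0 and 52.0 in Kitl_OE libraries, and Pex5l, a channel-associated protein gene, at 0.172, 0.2 and 0.0336 and 22.3, 33.4 and 25.4. Ggt1, gamma-glutamyltransferase, went from 0, 0.0801 and 0.0671 to 10.6, 12.2 and 10.7 CPM. On the lowered side the adhesion receptor gene Adgrl3 stood at 14.2, 9.70 and 16.2 and 0.0389, 0.110 and 0.0341 CPM, and Khdrbs2, an RNA-binding protein gene, at 3.66, 7.49 and 4.87 and 0.0389, 0 and 0.0341. In each of these 5 genes the lower line was under 0.5 CPM in all 3 libraries.

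Markers of other cell types that a pancreatic culture could hold were summed by list. Of 17 acinar and islet markers 10 had no count in any of the 6 libraries and Cela1 and Nkx6-1 fell, the list summing to 6.12 to 11.1 CPM in Egfp_OE and 1.91 to 2.35 in Kitl_OE libraries. Duct markers summed to 1530 to 2545 and 36.9 to 68.7 CPM, most of it from Spp1, which is also counted among the matricellular genes. Spp1 and Sox9, given above, were the called members (1 higher without Egfp_OE replicate 2). Blood and mast cell markers summed to 5.87 to 6.78 and 21.2 to 31.4 CPM. Their 2 called members rose, the lysozyme gene Lyz2 from 0.258, 0.962 and 0.235 to 9.07, 11.8 and 10.1 CPM and the receptor gene Csf1r from 2.58, 1.24 and 2.18 to 10.8, 10.8 and 18.6. The pan-leukocyte gene Ptprc stood at 0, 0 and 0.0336 and 0, 0.0366 and 0.0341 CPM. Endothelial markers summed to 12.4 to 17.7 and 26.3 to 29.0 CPM. Of these Kdr rose and Vwf was lower with all libraries, a call that ended without Egfp_OE replicate 3 or any 1 of the Kitl_OE libraries (adjusted p between 0.0629 and 0.0934), and the defining genes Pecam1 (0.195, 0.147 and 0.137 CPM) and Cdh5 (0, 0 and 0.0683 CPM) were low in Kitl_OE libraries. Adipocyte markers summed to 26.0 to 85.9 and 13.6 to 18.7 CPM. The part of any such cells in the results was not tested.

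Medians over the genes of whole chromosomes differed between the lines. The median log2 difference of the genes of a chromosome, without Egfp_OE replicate 2, ran from -0.552 on chromosome 9 to 0.434 on chromosome 10. On chromosome 9, 51 genes were higher and 392 lower of 855, on chromosome 13, 40 and 208 of 560 (median -0.459), and on chromosome 3, 82 and 256 of 822 (median -0.324). On chromosome 10, 298 were higher and 65 lower of 737, and on chromosome 2 the counts were 385 and 114 of 1176 (median 0.322). Among 10439 genes averaging at least 5 CPM, 15 of 20 chromosomes had medians of 1 sign in all 9 pairs of a Kitl_OE and an Egfp_OE library, 7 above and 8 below 0. The Kitl_OE libraries differed from each other by at most 0.067 in any chromosome median and the Egfp_OE libraries by at most 0.226.

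Set against the shCtrl mean, both lines contributed. On chromosome 9 the Kitl_OE libraries stood at -0.355, -0.354 and -0.331 and the Egfp_OE libraries at 0.172, 0.126 and 0.225 on the log2(CPM + 1) scale. On chromosome 10 the values were 0.276, 0.297 and 0.283 against -0.158, -0.222 and -0.162. On chromosome 2 the Kitl_OE libraries stood higher (0.359, 0.334 and 0.348, with Egfp_OE at 0.030, -0.069 and -0.007). On chromosome 8 the Egfp_OE libraries stood lower (-0.244, -0.327 and -0.323, with Kitl_OE at 0.029, 0.052 and 0.031). Of 3018 genes called without replicate 2 with an absolute log2 under 1, 2298 (76.1%) had the sign of their chromosome's median, and of 1088 with at least 3, 688 (63.2%). The medians come from these same genes, so most genes of a chromosome share its sign by construction. The share over all genes tested is not given, so these shares are no test of a link to chromosomes. DNA content was not measured here, and its part in these medians was not tested.

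**Figure D5:**
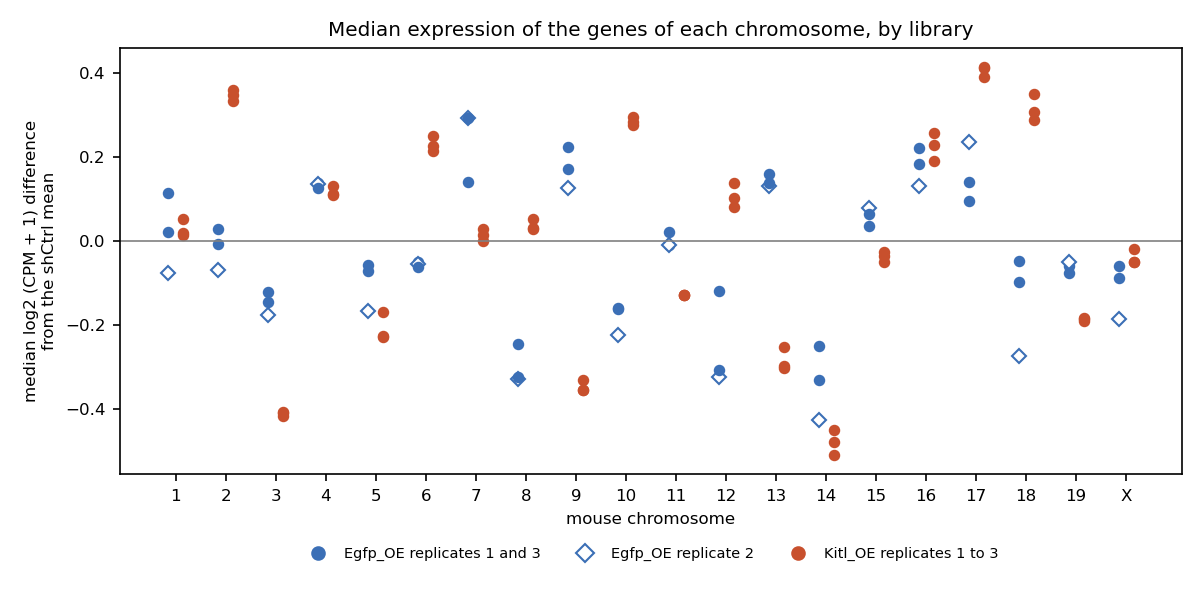
Median difference in log2(CPM + 1) from the shCtrl mean (vertical axis) of the genes of each mouse chromosome (horizontal axis), with 1 point per library, blue for Egfp_OE (the open diamond is replicate 2) and red for Kitl_OE. Red points of a chromosome lie within 0.067 of each other, and the lines part most on chromosomes 9 and 10.

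Lists were set beside their chromosomes, a comparison chosen after seeing the data. After each member's own chromosome median was subtracted, the list medians without replicate 2 were 2.70 for mesothelial markers (2.74 before), 1.51 for contractile genes (1.61 before), -2.06 for interferon genes (-2.22 before) and 1.01 for p53 targets (0.92 before). They were -0.36 for sterol genes (-0.50 before), -0.41 for replication genes (-0.39 before), -3.73 for Sprr genes (-4.05 before) and -0.20 for Hox genes (-0.23 before). These are a choice from 63 lists, and some others moved more. Toward 0 went fibrillar collagens (0.99 to 0.67), pericyte markers (-3.32 to -2.77), retinoid genes (-0.43 to -0.11) and other collagens (-0.64 to -0.26). Away from 0 went YAP-TEAD targets (0.57 to 0.80), FGF genes (0.25 to 0.58) and oncofetal genes (-0.96 to -1.21). Chromosome 6, which holds the HoxA cluster, had a median of 0.281 and chromosome 15, which holds HoxC, of -0.084.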

How the data were processed

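RNA was sequenced from 12 libraries, and the 3 Kitl_OE and 3 Egfp_OE libraries were compared here. Per the submitters' processing notes, reads were processed with STAR 2.5.2b, featureCounts of Subread 1.5.2 and DESeq2, on GRCm38; the sources used here do not name the annotation release or strand setting. The authors deposited a table of raw counts per gene and a table of TPM, each with 49763 entries, of which 92 are ERCC spike-ins and 49671 genes. Deposited TPM values were used only in alternative tests with limma, on log2(TPM + 1) and log2(TPM + 0.1).

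Counts without the ERCC rows were scaled by TMM and tested with edgeR 4.0.16 (limma 3.58.1, R 4.3.3) by its quasi-likelihood test with Benjamini-Hochberg adjustment over all 15271 genes that passed filterByExpr. The 12 libraries were fitted in 1 model (biological coefficient of variation 0.292), without a block for replicate numbers. DESeq2 1.42.0 was an alternative. The script was tested on simulated data. An exact permutation test of 3 against 3 cannot go below p = 0.1, so none is given. Depth is stated in the report. Of the gene IDs, 49412 were found in GENCODE M21, which gave coordinates and exon lengths, and promoters came from RefSeq (GRCm38.p6).

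The 63 lists hold 1593 genes, of which 1591 were in the table and 1314 were tested. Lists and genes were chosen with earlier results of these data known, so they are no independent support. Named genes were a fixed set of markers, the 15 highest and 15 lowest changes called in both fits without overlap, up to 6 called members and the most abundant uncalled member of each list, up to 3 members per list whose call ended without Egfp_OE replicate 2, and the 8 genes farthest above and below in that library. These genes were chosen after their values were seen: Bmp6, Cdh5, Chrd, Cnn2, Cpe, Csrp1, Des, Fads2, Fzd4, Fzd5, Fzd6, Fzd7, Gfap, Grem1, Hand2, Hoxa9, Hoxc6, Htr1b, Ifi27, Ifit1, Isg15, Itgb1, Kcnn4, Ldb3, Lif, Mdm2, Myl9, Myocd, Nlrc5, Pecam1, Plk2, Ptprc, Rsad2, Sema3c, Six2, Srf, St3gal5, Tagln, Tbx15, Tgfbr3 and Vim. Alternatives were fixed with the design: other scalings, filters and tools, each library left out, a replicate block, stricter thresholds and TPM with limma. Some results are not reported here.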

Additional observations from a re-analysis of the deposited data

How the results depend on the processing

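Replicate numbers recur in both lines, and a fit with the replicate block called 2406 genes higher and 2780 lower, with Kitl at 1.1. Deviations of same-numbered libraries from their group means correlated at 0.0456, 0.309 and 0.254 over genes, and Egfp_OE replicate 1 correlated best with Kitl_OE replicate 3 (0.163), so the numbers were not taken as a pairing.

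Scaled by spike-in totals, 1061 genes were higher and 1290 lower, and Kitl was not called (log2 0.95, adjusted p = 0.242). Limited to libraries with a P number found in both lines, 1522 were higher. An adjusted p of 0.01 left 1258 and 1564, and an absolute log2 of at least 1 left 1376 higher. Leaving out 1 library in turn gave 1646 to 3075 higher, 1807 to 3039 lower and a Kitl log2 of 0.77 to 1.24. Among 431 genes named by the rule, 21 settings gave 8958 values: 7967 kept direction and side of the threshold, 955 fell short of it, 35 passed it and 1 reversed. That one was Tjp1, a tight junction gene, at log2 0.02 with all libraries and -0.34 without Egfp_OE replicate 2 (adjusted p = 0.0377), the other omissions giving up to 0.27. The cause of these shifts was not tested. Many of the named genes were picked as called members with the largest changes, so their agreement is set in part by that choice. Over all genes tested, 5236 were called and 3145 of these stayed called in each of the 6 omissions. Genes near 0 counts in 1 line have fold changes that depend on the prior count, and the depth sets how low a level can be seen.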

Other observations

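Genes of fibroblast growth factors and their receptors gave 1 higher (Fgf18) and 3 lower of 13 (2 higher without Egfp_OE replicate 1 or Kitl_OE replicate 1), with the ligand gene Fgf18 at 0.401, 1.00 and 0.470 and 6.93, 7.22 and 3.52 CPM. Of this list 30.8% were called and 23.1% kept, near the 34.3% and 20.6% over all genes tested.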
